A study of Homo sapiens with 4 samples.

Results

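The axon guidance genes described here are the ephrins and their Eph receptors, the semaphorins with their plexin and neuropilin receptors, and the slits and netrins with ROBO, DCC and UNC5 receptors. Members were chosen by gene symbol, with no expression value in the rule, but with earlier results of these data known. The rule took 67 of the 19314 genes listed, and 64 of the 67 had a value. EPHA6, EPHB6 and ROBO2 were blank in all 4 libraries. RNA was sequenced from U87, a human astrocytoma cell line, in 2 libraries of a PTPRN knockdown labelled PTP2 and in 2 control libraries labelled SCR. The knockdown used a short hairpin against PTPRN, a receptor-type protein tyrosine phosphatase of secretory vesicles, and the study's control vector carried a sequence that matches no human coding gene. The knockdown libraries carry 1 label, so that no further hairpin was compared, and nothing in the labels says that the replicates were separate cultures, so that p-values measure only the spread between these libraries.

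Guidance ligands are secreted or membrane-bound cues that attract or repel growing axons, and the same families steer vessels and migrating cells, gliomas included. Ephrins stay on the cell surface and signal to Eph receptor tyrosine kinases on the neighbouring cell, often in both directions. Secreted class 3 semaphorins act through a neuropilin that binds them and a plexin that carries the signal, whereas membrane-bound semaphorins mostly bind plexins directly. Slits act through ROBO receptors, and netrins through DCC and the UNC5 family.

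The level of every gene was given as FPKM, reads scaled for transcript length and library size, which allows levels of different genes to be set side by side. The low values implied between 18200000 and 19700000 mapped reads per library. PTPRN was 12.09 and 11.68 FPKM in the PTP2 libraries against 84.84 and 85.02 in the SCR libraries, a log2 fold change of -2.74 ± 0.03 (SE, adjusted p = 1.48e-04 by limma), so that the targeted gene followed the labels. Across all genes the replicates of a group correlated at 0.999 and libraries of different groups at 0.961 to 0.962. The labels name U87 as the cell line, but their growth protocol names hCMEC/D3, a brain endothelial line. Of the 10 endothelial markers 8 stayed under 1 FPKM in every library, CDH5 and CLDN5 at 0.03 at most, and their summed level was 4.03 to 4.77 FPKM. Of the 9 glial markers with a value 4 stayed under 1 FPKM in every library, GFAP and S100B at 0.55 and 0.05 at most. SLC1A3, a glutamate transporter, was 10.23 and 9.76 FPKM in PTP2 and 5.81 and 5.99 in SCR (adjusted p = 8.25e-04 by limma). The intermediate filament genes NES and VIM changed at least 2-fold (adjusted p of 4.07e-04 and 3.76e-04 by limma). NES went from 12.96 and 14.24 FPKM in SCR to 3.12 and 3.39 in PTP2, and VIM from 1998 and 1918 to 4766 and 4565. CDKN2A, in a region deleted in U87, was at most 0.05 FPKM and its neighbour CDKN2B was blank.

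More guidance genes were lower than higher in the knockdown, and the lower ones included receptors of the Eph, plexin and netrin families. A gene was taken as differential if its expression differed at least 2-fold and the adjusted p did not exceed 0.001, here called the strict thresholds, by limma's moderated test on log2(FPKM + 1) across all 16595 genes with a value. At these thresholds SEMA3A, SEMA6D and SLIT2 rose, 3 of the 64 members or 4.69%, beside 2.63% of all genes tested. The members that fell were PLXND1, SEMA3B, EPHB4, SEMA6B, SEMA4B, PLXNB2, PLXNB3, EPHA2, UNC5B and SEMA5A, which made 10 of 64 or 15.6%, beside 4.06% of all genes. In RNA from whole cultures, fewer cells expressing a gene and less RNA per cell cannot be told apart. Of the 10 that fell, 6 encode receptors and 4 encode semaphorins, and the 3 that rose encode ligands. At an adjusted p of at most 0.05, 16 of 33 ligands and 16 of 31 receptors fell and 5 ligands and 2 receptors rose, beside 27.1% of all genes that fell and 30.8% that rose. A difference between ligands and receptors was not tested.

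At an adjusted p of at most 0.05 with no minimum fold change, the wider threshold, 7 members rose, or 10.9%, beside 30.8% of all genes. At the same threshold 32 members fell, or 50.0%, beside 27.1%. Both PTP2 libraries lay above both SCR libraries for 13 members (20.3%, against 39.7% of all genes) and below both for 39 (60.9%, against 35.8%). The median log2 fold change was -0.14 over the 64 members and 0.01 over all genes tested. With median-ratio scaling 4 members rose at 0.05, since ROBO1, EFNA5 and PLXNB1 were lost, and 4 rose and 20 fell without PTP2 replicate 1, and 5 rose and 20 fell without PTP2 replicate 2. Summed over the 64 members, the guidance transcripts amounted to 408 ± 4.62 FPKM in PTP2 and 604 ± 0.976 in SCR (SD, n = 2).

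**Figure D1:**
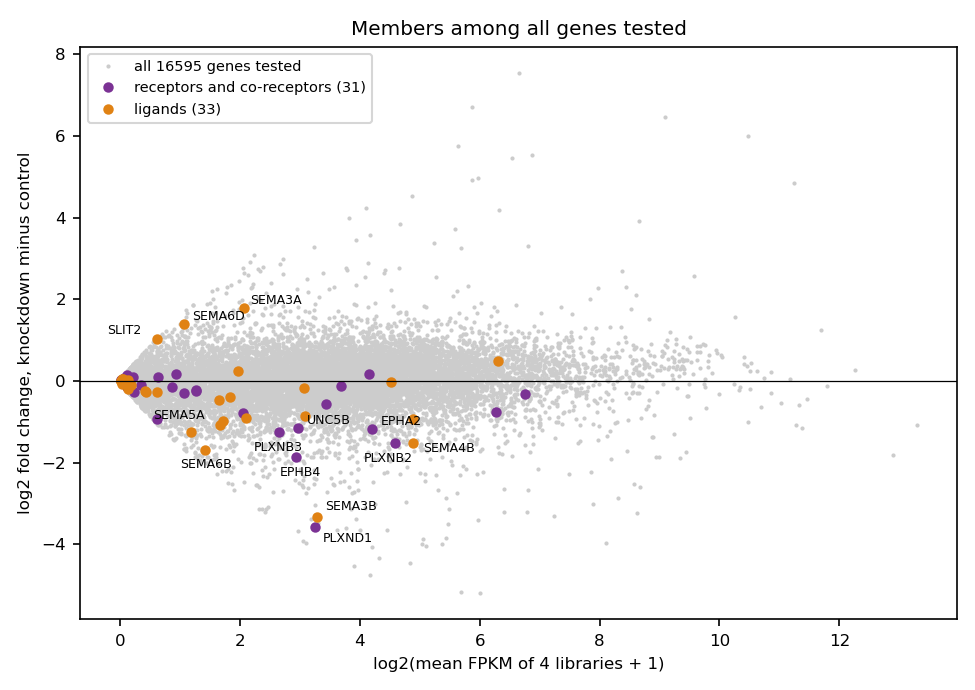
Each grey point is 1 of the 16595 genes tested, with the log2 of its mean FPKM over the 4 libraries plus 1 on the x axis and its log2 fold change (PTP2 minus SCR, on log2(FPKM + 1)) on the y axis. Purple points are the 31 receptors and co-receptors and orange points the 33 ligands, and the 13 differential members are named, 3 above 0 and 10 below.

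The bases before the transcription start are shown for the differential members with the largest changes, so that the starts of genes that fell and of genes that rose can be set side by side. They comprise EPHB4, PLXND1 and SEMA3B, the 3 largest falls among members with an entry in the RefSeq promoter table, and SEMA6D and SLIT2, the members that rose and have an entry. All are on GRCh38.p14 and are written on the strand of the gene, ending next to the RefSeq start, except that the 142 bases of PLXND1 that GENCODE 29 counts as exon were left out. EPHB4 lies on the minus strand at chr7:100827524-100827773, PLXND1 on the minus strand at chr3:129606819-129606926, SEMA3B on the plus strand at chr3:50272869-50273118, SEMA6D on the plus strand at chr15:47183839-47184088 and SLIT2 on the plus strand at chr4:20251655-20251904. Capitals mark a GC box (GGGCGG or CCGCCC) or, in SEMA6D, an E-box (CACGTG).
EPHB4: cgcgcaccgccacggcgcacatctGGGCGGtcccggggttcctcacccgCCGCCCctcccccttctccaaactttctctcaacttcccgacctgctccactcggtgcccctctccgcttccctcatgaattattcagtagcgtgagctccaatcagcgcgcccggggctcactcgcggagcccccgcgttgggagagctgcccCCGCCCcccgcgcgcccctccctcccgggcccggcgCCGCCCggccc
PLXND1: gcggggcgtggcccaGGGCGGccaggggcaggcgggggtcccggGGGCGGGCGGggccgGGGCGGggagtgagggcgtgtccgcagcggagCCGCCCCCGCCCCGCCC
SEMA3B: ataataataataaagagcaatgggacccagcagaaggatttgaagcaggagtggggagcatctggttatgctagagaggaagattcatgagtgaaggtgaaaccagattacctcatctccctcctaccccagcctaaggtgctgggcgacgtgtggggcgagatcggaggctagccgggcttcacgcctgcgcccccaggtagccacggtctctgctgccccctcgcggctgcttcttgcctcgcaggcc
SEMA6D: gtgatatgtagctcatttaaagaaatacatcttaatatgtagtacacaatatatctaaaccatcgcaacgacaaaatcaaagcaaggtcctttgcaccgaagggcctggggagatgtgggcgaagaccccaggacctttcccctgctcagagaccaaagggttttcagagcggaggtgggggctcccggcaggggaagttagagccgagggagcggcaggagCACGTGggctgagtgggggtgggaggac
SLIT2: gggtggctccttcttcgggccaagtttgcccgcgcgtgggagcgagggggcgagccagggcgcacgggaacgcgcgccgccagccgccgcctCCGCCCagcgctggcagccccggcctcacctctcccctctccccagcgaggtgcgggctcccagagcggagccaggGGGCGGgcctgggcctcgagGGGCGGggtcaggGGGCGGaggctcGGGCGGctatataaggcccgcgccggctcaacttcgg

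Base composition differed among the members shown within each direction. PLXND1 held 88.9% G and C with 7 GC boxes in 108 bases and SEMA3B 57.6% with 0, and both genes fell. SLIT2 held 77.2% with 5 GC boxes and SEMA6D 53.6% with 0, and both rose. The SEMA3B window lies inside the gene as the authors' table gives it, so that transcripts with an earlier start exist in that annotation. Over 250 bases before the start, a GC box on either strand was present in 42 of the 58 members with an entry (72.4%) and in 61.2% of 13258 tested genes. It was present in 7 of the 8 members that fell and had an entry, and in 1 of the 2 that rose and had an entry. For this count PLXND1 was read over its full 250 bases, and a link with the direction of change was not tested. The E-box occurred in 8.28% of all promoters and in 4 of the 58, AP-1 (TGANTCA) in 4.57% and 1, the TATA box (TATAAA) in 7.34% and 1 and a NF-kappa B motif in 1.87% and 0. Overlapping matches were counted, and a match describes letters only.

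Among the Eph receptors, EPHA2 and EPHB4 made up most of the transcripts and both fell. EPHA2, a receptor for A-type ephrins with a known role in glioma growth, was 10.65 and 9.97 FPKM in PTP2 and 24.90 and 24.31 in SCR. EPHB4, the receptor of ephrin-B2, was 2.30 and 2.32 FPKM in PTP2 and 11.54 and 10.49 in SCR. The groups lay far apart for both genes, with log2 fold changes of -1.18 ± 0.04 (SE, adjusted p = 4.21e-04) for EPHA2 and -1.86 ± 0.05 (adjusted p = 3.31e-04) for EPHB4. EPHB3 was 0.06 and 0.03 FPKM against 1.06 and 0.96, about 5 and 2 reads against 87 and 73. Its FPKM was 22.4-fold lower, but the added 1 FPKM left a log2 fold change of -0.94 (adjusted p = 5.29e-04), short of the fold threshold. EPHB2 was 2.04 and 2.06 FPKM against 4.25 and 4.22, or -0.78 on the log2 scale (adjusted p = 4.10e-04).

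EPHA4 fell by 0.21 on the log2 scale at the wider threshold but not with quantile normalization (adjusted p = 0.21), with means of 1.24 FPKM in PTP2 and 1.59 in SCR. The 7 other Eph receptors with a value, EPHA1, EPHA3, EPHA5, EPHA7, EPHA8, EPHA10 and EPHB1, stayed under 1 FPKM in every library and passed neither threshold, although EPHA5 (-0.16, with median-ratio scaling) and EPHB1 (0.13, with quantile normalization) passed the wider one under those scalings. In sum the EPHA receptors were at 13.1 ± 0.750 FPKM in PTP2 and 27.8 ± 0.0778 in SCR, and the EPHB receptors at 4.61 ± 0.0354 and 16.4 ± 0.849 (SD, n = 2). EPHB4 supplied 13.1% of all Eph receptor FPKM in PTP2 and 24.9% in SCR. EPHA2 supplied 58.3% and 55.7%.

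EFNB2, the ephrin that binds EPHB4, was the most abundant ephrin and overlapped between the groups. It was 22.20 and 21.41 FPKM in PTP2 and 21.68 and 22.87 in SCR, with a log2 fold change of -0.03 ± 0.04 (adjusted p = 0.619). EPHB4 fell by 1.86 on that scale, whereas its ligand showed no difference larger than the spread between libraries. In GENCODE 29, 26.2% of the exon bases of EFNB2 also lie in an antisense transcript, and whether reads were counted by strand is not given in the sources used here.

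No ephrin passed the strict thresholds. EFNA3 was 0.16 and 0.55 FPKM in PTP2 and 2.14 and 2.26 in SCR, and EFNA4, its neighbour 9.3 kb away on chromosome 1, was 2.35 and 1.59 against 4.63 and 4.51. The PTP2 libraries differed widely for EFNA3, and its log2 fold change of -1.25 ± 0.16 had an adjusted p of 0.00515. EFNA4 gave -0.92 ± 0.14 (adjusted p = 0.00875). A readthrough transcript shares 44.7% of the exon bases of EFNA3 and 15.0% of those of EFNA4 on the same strand, so that the values of both genes are uncertain. EFNA5, a ligand of several EPHA receptors, moved the other way with 3.21 and 3.23 FPKM against 2.35 and 2.76, which gave 0.25 as the log2 fold change (adjusted p = 0.0416, or 0.0557 with median-ratio scaling). EFNB1 and EFNA1 fell at the wider threshold, from means of 2.63 and 0.175 FPKM in SCR to 1.64 and 0.02 in PTP2. The values of EFNA1 rest on about 0 and 1 reads in PTP2 and 6 and 4 in SCR. EFNA2 and EFNB3 were at or below 0.05 FPKM in every library.

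**Figure D2:**
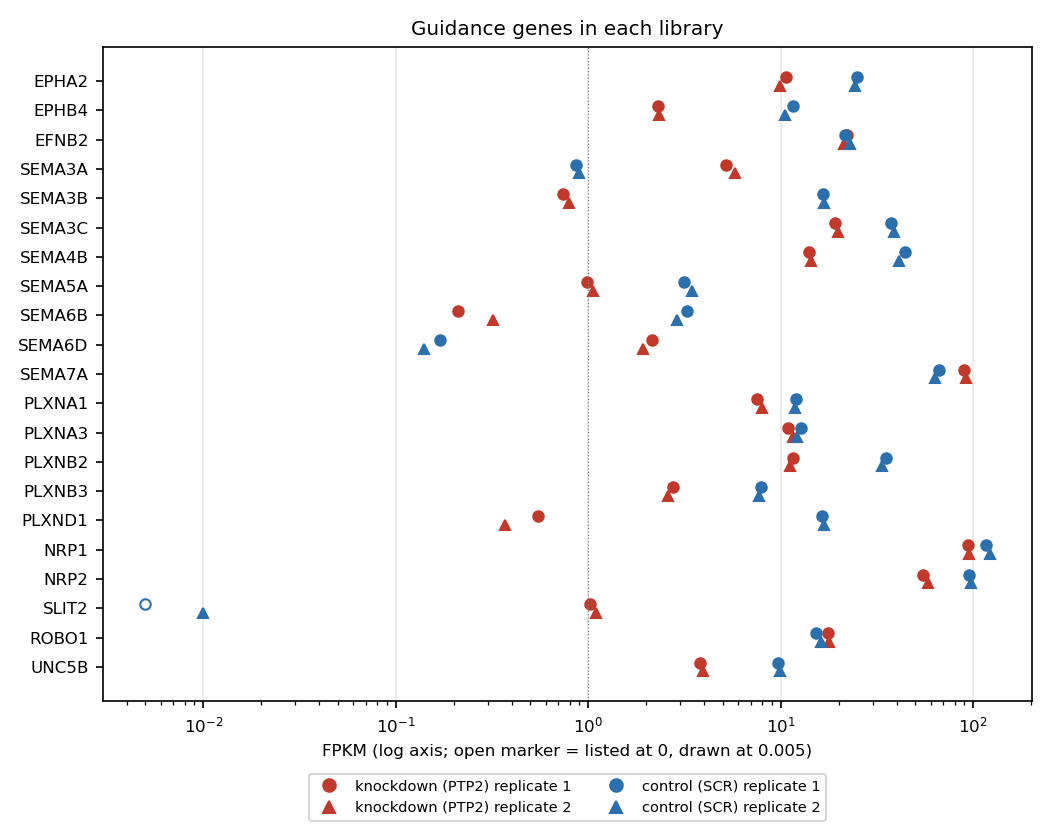
FPKM on a log axis in each of the 4 libraries for the 21 members that were differential or reached a group mean of 10 FPKM, with PTP2 in red, SCR in blue, circles for replicate 1 and triangles for replicate 2. Replicates lie close together, and PLXND1 and SEMA3B fall from 16 to 17 FPKM in SCR to under 1 in PTP2, whereas SLIT2 is at 0 and 0.01 in SCR and above 1 in PTP2.

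The class 3 semaphorins changed in make-up. SEMA3B, a secreted semaphorin from a region of chromosome 3 often lost in lung cancer, was 0.74 and 0.79 FPKM in PTP2 and 16.67 and 16.71 in SCR. It was 21.8-fold lower in FPKM, with a log2 fold change of -3.33 ± 0.03 (adjusted p = 1.19e-04). SEMA3A, the semaphorin first known for collapsing growth cones, was 5.19 and 5.80 FPKM in PTP2 and 0.86 and 0.89 in SCR. It was 6.28-fold higher, with a log2 fold change of 1.79 ± 0.06 (adjusted p = 3.59e-04). For both genes every library of one group stood apart from every library of the other.

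SEMA3C, which has been tied to glioma stem cell survival, was the most abundant class 3 semaphorin, at 19.04 and 19.76 FPKM in PTP2 and 37.34 and 38.60 in SCR. Its log2 fold change of -0.93 ± 0.04 (adjusted p = 4.70e-04) fell short of the fold threshold. SEMA3D, SEMA3E, SEMA3F and SEMA3G were at 0.08 FPKM or less in all libraries. The share of class 3 semaphorin FPKM held by SEMA3B was 2.95 and 2.99% in the PTP2 libraries and 30.3 and 29.7% in the SCR libraries. The share of SEMA3A averaged 21.3% in PTP2 and 1.57% in SCR, and SEMA3C held 75.3% and 68.2%. The nearest other members on the chromosome were SEMA3F, 78.5 kb from SEMA3B, and SEMA3E, 309.2 kb from SEMA3A, and genes outside these families were not examined there.

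In class 4, whose members span the membrane and mostly bind B-type plexins, every gene had both PTP2 libraries below both SCR libraries. The same held for 35.8% of all genes tested. SEMA4B was 13.97 and 14.41 FPKM in PTP2 and 44.32 and 41.38 in SCR, a log2 fold change of -1.53 ± 0.05 (adjusted p = 3.49e-04). SEMA4F was 4.96 and 5.13 FPKM against 10.02 and 9.88, which gave a log2 fold change of -0.86 (adjusted p = 4.27e-04). SEMA4D, the ligand of plexin-B1, fell by 0.39 on the log2 scale and SEMA4C, a ligand of plexin-B2, by 0.19, both at the wider threshold. SEMA4G fell by 0.27 at a mean of 0.475 FPKM in SCR, and 22.3% of its exon bases overlap MRPL43 on the opposite strand. SEMA4A stayed at 0.23 FPKM or less and did not pass.

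In classes 5 and 6, also membrane-bound, SEMA5A and SEMA6B fell and SEMA6D rose. SEMA5A was 0.99 and 1.06 FPKM in PTP2 and 3.13 and 3.45 in SCR, a log2 fold change of -1.08 ± 0.05 (adjusted p = 6.03e-04). SEMA6B was 0.21 and 0.32 FPKM against 3.26 and 2.88, about 15 and 23 reads against 251 and 205. Its log2 fold change was -1.69 ± 0.07 (adjusted p = 5.23e-04), and its FPKM was 11.6-fold lower. SEMA6D, a ligand of plexin-A1, was 2.15 and 1.92 FPKM in PTP2 and 0.17 and 0.14 in SCR, about 237 and 212 reads against 20 and 15. It was 13.1-fold higher in FPKM, with a log2 fold change of 1.39 ± 0.05 (adjusted p = 4.10e-04). The level of SEMA6D in PTP2 was below that of SEMA6B in SCR. SEMA6C fell by 0.28 at the wider threshold, and SEMA5B and SEMA6A were at 0.11 FPKM or less.

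SEMA7A, which is anchored to the membrane by a lipid and signals through plexin-C1 and integrins, was the most abundant semaphorin in PTP2 and in SCR. It was 90.01 and 91.95 FPKM in PTP2 and 66.59 and 63.67 in SCR, a log2 fold change of 0.48 ± 0.04 (adjusted p = 0.00167). It was 1.40-fold higher and passed the wider threshold only. With SEMA4B and SEMA3C lower, SEMA7A made 61.0% of all semaphorin FPKM in PTP2 and 33.8% in SCR. All 20 semaphorins together were at 149 ± 2.80 FPKM in PTP2 and 193 ± 3.33 in SCR (SD, n = 2).

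**Figure D3:**
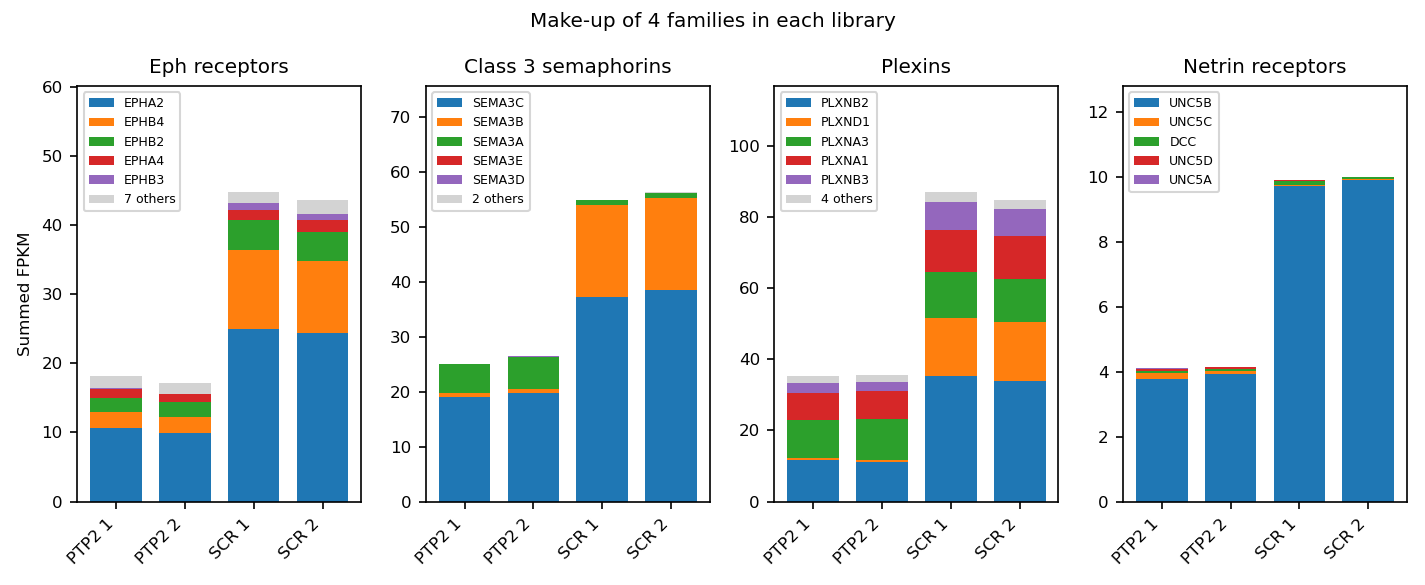
Stacked bars give the summed FPKM of the Eph receptors, class 3 semaphorins, plexins and netrin receptors in each of the 4 libraries, split by gene, with members beyond the 5 most abundant in grey. The bars of PTP2 are lower in each of the 4 families, and the layers of SEMA3B and PLXND1 that are visible in SCR are thin in PTP2. Among the families not shown, the summed FPKM of the SLIT ligands, the ROBO receptors and SEMA7A was higher in PTP2, and that of the others lower.

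Of the 9 plexins, 7 fell and 1 rose at an adjusted p of at most 0.05, beside 27.1% and 30.8% of all genes, and PLXNA2, PLXNC1 and PLXNB1 among them lost the call under 1 of the scalings. PLXND1, the receptor that SEMA3E binds without a neuropilin, had the log2 fold change farthest from 0 of all members. It was 0.55 and 0.37 FPKM in PTP2 and 16.31 and 16.79 in SCR, or about 70 and 47 reads against 2224 and 2119. It was 36.0-fold lower in FPKM, with a log2 fold change of -3.59 ± 0.07 (adjusted p = 2.30e-04). PLXND1 held 19.3% of plexin FPKM in SCR and 1.30% in PTP2.

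PLXND1 and EPHB4 are known from endothelium. Of the 10 endothelial markers 3 rose and 2 fell at an adjusted p of at most 0.05, near the 30.8% and 27.1% of all genes. VWF fell, at 0.06 and 0.05 FPKM in PTP2 and 0.98 and 0.93 in SCR, and so did PECAM1, at 1.21 and 1.26 against 2.39 and 2.50. ERG rose, at 0.68 and 0.94 FPKM in PTP2 and 0.07 and 0.07 in SCR. KDR was also higher, at 0.87 and 0.85 against 0.36 and 0.32, as was TEK, at 0.97 and 1.08 against 0.45 and 0.60. The summed level of the 10 markers ranged from 4.03 to 4.57 FPKM in PTP2 and from 4.72 to 4.77 in SCR, under the level of PLXND1 alone in SCR. The part of these genes in the result was not tested.

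Among the B-type plexins, which are receptors of class 4 semaphorins, PLXNB2 and PLXNB3 fell. PLXNB2, the most abundant plexin in SCR, was 11.57 and 11.23 FPKM in PTP2 and 35.36 and 33.76 in SCR, a log2 fold change of -1.52 ± 0.04 (adjusted p = 2.90e-04). PLXNB3, a receptor of SEMA5A, was 2.75 and 2.61 FPKM against 7.94 and 7.70, which gave a log2 fold change of -1.26 ± 0.04 (adjusted p = 3.36e-04). SRPK3 shares 20.4% of the exon bases of PLXNB3 on the same strand, so that its level is less certain. PLXNB1 rose by 0.17 at the wider threshold (adjusted p = 0.0475, and 0.0656 with median-ratio scaling), from 0.73 and 0.86 FPKM in SCR to 1.02 and 1.01 in PTP2. The summed B-type plexins were at 15.1 ± 0.346 FPKM in PTP2 and 43.2 ± 1.21 in SCR (SD, n = 2).

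None of the A-type plexins, which carry the signal of class 3 and class 6 semaphorins, passed the strict thresholds. PLXNA1 was 7.49 and 7.95 FPKM in PTP2 and 12.00 and 11.90 in SCR, a log2 fold change of -0.57 (adjusted p = 0.00122). PLXNA3 was 10.93 and 11.54 FPKM against 12.74 and 12.09, a log2 fold change of -0.13 ± 0.05 that did not pass (adjusted p = 0.0793), but it passed with quantile normalization (0.0496) and median-ratio scaling (0.0364). In PTP2, PLXNA3 stood at 31.7% of plexin FPKM beside 32.1% for PLXNB2, whereas in SCR the values were 14.5% and 40.3%. PLXNA2 fell by 0.30 on the log2 scale at the wider threshold from a mean of 1.31 FPKM in SCR, but not with quantile normalization (adjusted p = 0.0569). PLXNA4 was 0.06 and 0.06 FPKM in PTP2 and 0.32 and 0.26 in SCR, about 14 and 14 reads against 82 and 62. Its FPKM was 4.83-fold lower, and its log2 fold change was -0.28 with 1 FPKM added and -1.28 with 0.1 FPKM added. PLXNC1, the plexin of SEMA7A, fell by 0.14 at the wider threshold but not with quantile normalization (adjusted p = 0.0556), and was at 0.16 FPKM or less in every library.

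NRP1 and NRP2 were the most abundant members in SCR, and in PTP2 the level of SEMA7A lay between theirs. NRP1, which binds class 3 semaphorins and VEGF, was 94.15 and 94.87 FPKM in PTP2 and 116.74 and 121.87 in SCR. NRP2 was 55.10 and 58.37 FPKM against 95.33 and 97.60. Both fell at the wider threshold, NRP1 by 0.33 ± 0.04 on the log2 scale (adjusted p = 0.00353) and NRP2 by 0.76 ± 0.04 (adjusted p = 8.09e-04). NRP1 was 1.26-fold and NRP2 1.70-fold lower. Without PTP2 replicate 1 or 2 the adjusted p of NRP1 was 0.0550 or 0.0533. NRP1 supplied 62.5% of neuropilin FPKM in PTP2 and 55.3% in SCR.

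**Figure D4:**
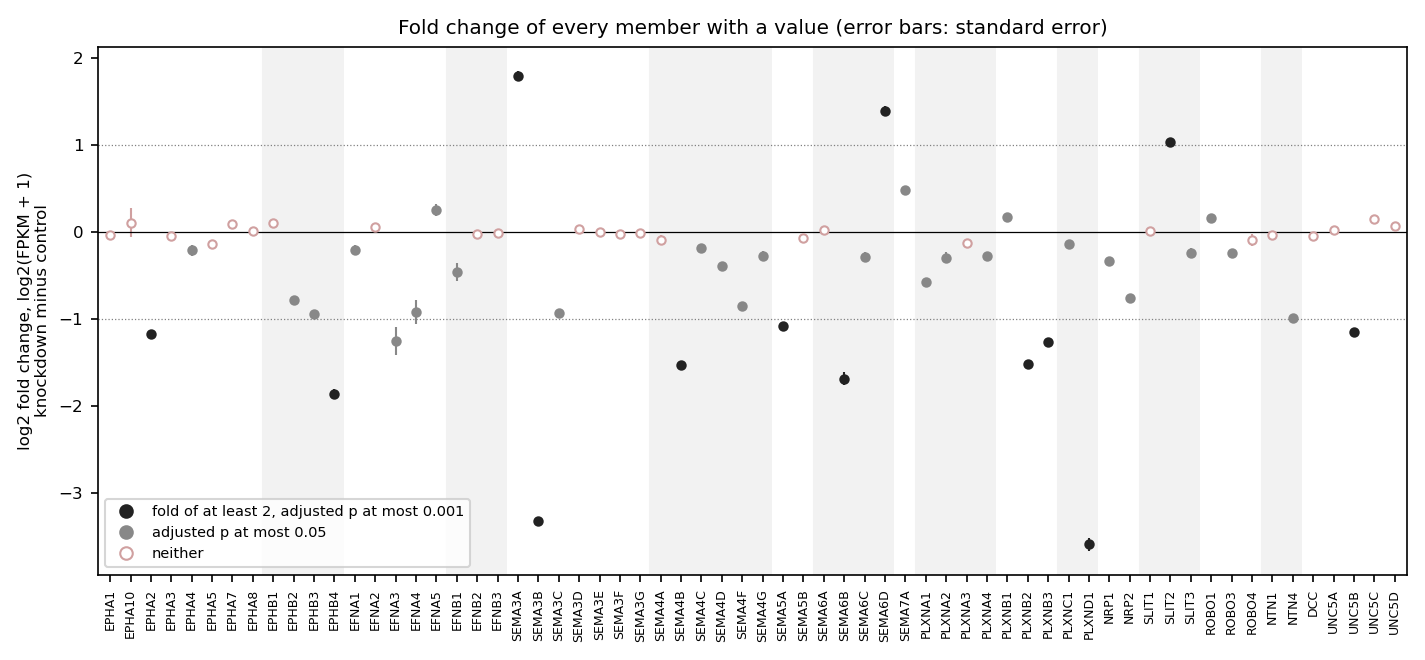
The log2 fold change on log2(FPKM + 1), PTP2 minus SCR, of each of the 64 members with a value, ordered by family on the x axis with shaded bands for alternate families and standard errors as bars. Black points are the 13 differential members, grey points passed an adjusted p of 0.05 only, open points passed neither, and dotted lines mark a fold of 2.

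SLIT2, a repulsive ligand of ROBO1, was 1.02 and 1.10 FPKM in PTP2 and 0 and 0.01 in SCR. These values stand for about 149 and 160 reads in PTP2 and 0 and 1 in SCR, so that no fold change of FPKM is given. The log2 fold change on log2(FPKM + 1) was 1.04 ± 0.04 (adjusted p = 3.79e-04), just above the fold threshold, and depends on the added 1 FPKM. SLIT3 moved the other way, from a mean of 0.445 FPKM in SCR to 0.225 in PTP2 (adjusted p = 0.0247), and SLIT1 was at 0.01 FPKM or less. ROBO1 was 17.57 and 17.91 FPKM in PTP2 and 15.28 and 16.24 in SCR, a log2 fold change of 0.16 ± 0.04 (adjusted p = 0.0387), which did not pass with quantile normalization (adjusted p = 0.0819) or median-ratio scaling (0.0751). ROBO3 fell by 0.24 on the log2 scale (adjusted p = 0.00988, and 0.054 with quantile normalization). ROBO4, known from endothelium, was at 0.36 FPKM or less in every library and did not pass.

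UNC5B, a netrin receptor that mediates repulsion, was 3.79 and 3.93 FPKM in PTP2 and 9.72 and 9.92 in SCR, a log2 fold change of -1.15 ± 0.03 (adjusted p = 3.31e-04). It held 93.2% of the DCC and UNC5 receptor FPKM in PTP2 and 98.6% in SCR. DCC, UNC5A, UNC5C and UNC5D were at 0.18 FPKM or less in every library and did not pass. NTN4, a netrin of basement membranes that binds laminin, was 1.14 and 1.25 FPKM against 3.38 and 3.33. Its log2 fold change of -0.99 (adjusted p = 4.60e-04) lay just short of a fold of 2, and its FPKM was 2.81-fold lower. NTN1, the best known netrin, was at 0.08 FPKM or less.

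Some ligands and receptors known to bind each other were set side by side, as pairs chosen after their values were seen. SEMA5A and its receptor PLXNB3 both fell, with log2 fold changes of -1.08 and -1.26. SEMA3A rose by 1.79 while NRP1 fell by 0.33 and PLXNA1 fell by 0.57. SLIT2 rose by 1.04 with ROBO1 at 0.16. EPHB4 fell by 1.86 with EFNB2 at -0.03, and SEMA4D fell by 0.39 with PLXNB1 at 0.17. SEMA7A rose by 0.48 with PLXNC1 at -0.14. EPHA2 fell by 1.18, with its A-type ligands at log2 fold changes of -1.25 (EFNA3), -0.92 (EFNA4), 0.25 (EFNA5) and -0.20 (EFNA1, on few reads).

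Guidance genes beyond these families were counted for comparison. Of 13 further ligands and receptors 11 had a value, and at an adjusted p of at most 0.05 2 rose and 5 fell, with a median log2 fold change of -0.08. NTNG1, a membrane-anchored relative of the netrins, fell at the strict thresholds from 8.70 and 9.13 FPKM in SCR to 3.72 and 3.88 in PTP2 (log2 fold change of -1.05 at an adjusted p of 4.42e-04). Of the 62 signalling effectors, among them kinases and collapsin response mediators, 25 rose and 22 fell at 0.05, with a median of -0.00. Of all genes 30.8% rose and 27.1% fell at that threshold. FARP1, a guanine nucleotide exchange factor, fell from 6.83 and 7.18 FPKM to 2.84 and 2.91 (log2 fold change -1.05, adjusted p = 4.07e-04).

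All of these calls rest on 2 libraries against 2, for which an exact permutation test cannot go below p = 0.333. The adjusted p of the 13 differential members rose above 0.001 with a pseudocount of 0.1, where it lay between 0.0013 and 0.0031, and when any 1 library was left out, where it lay between 0.0226 and 0.0296, and in both cases 0 of the 16595 genes passed. All 13 kept their direction, which leaving out 1 library could not reverse, since their groups do not overlap. With the pseudocount of 0.1 all 13 kept an adjusted p of at most 0.05.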

How the data were processed

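Total RNA of U87 cells was read single-end over 50 bases (BGISEQ-500). The authors deposited 1 FPKM value per gene and library in 2 tables, and 0 of 66380 values differed between them. The submitters' processing notes name HISAT2 2.1.0 and hg19, but the deposited positions of 96.94% of 19257 matched genes overlap their GRCh38.p14 span in RefSeq. Overlap with hg19 positions was not counted. The counting program, annotation and use of strand are not given in the sources used here. The deposited tables also hold the authors' own DEGseq and PossionDis comparisons (log2 fold changes, q-values, p-values, false discovery rates), which were not used. No counts were given, so that mapped reads were estimated from the steps between low FPKM values of genes with 1 transcript (85.7 to 90.5% within 0.15 of a whole read). Reads per member are approximate, since the longest transcript was taken as the length.

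Members and gene lists were chosen with earlier results of these data known. Groups followed the titles. Genes above 0 in at least 1 library (16595) entered a fit by limma 3.58.1 (R 4.3.3; lmFit and eBayes, default options) on log2(FPKM + 1), with Benjamini-Hochberg adjustment over all of them and 3.72 degrees of freedom per gene. Fold changes on this scale understate those of low genes. The fit was tested on simulated data. Library values were given for members that were differential (at least 2-fold with an adjusted p up to 0.001, thresholds named in the study) or reached a group mean of 10 FPKM, and for companion genes that were differential. Other members with single values were chosen after their values were seen. Alternatives were a pseudocount of 0.1, a minimum of 1 FPKM in 2 libraries, quantile and median-ratio scaling, eBayes with trend and robust options, the replicate number as a block and leaving out each library. A pseudocount of 0.1 with trend and robust options was added after seeing the data. Of the marker lists, 4 of 9 glial markers rose and 2 fell, 3 of 5 neuronal and 2 of 6 myeloid markers fell, and 0 of 7 epithelial markers and 0 of 2 CDKN2A locus genes changed at an adjusted p of at most 0.05, beside 30.8% of all genes that rose and 27.1% that fell.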

Additional observations from a re-analysis of the deposited data

How the results depend on the processing

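At the strict thresholds 3 members were higher and 10 lower, and 0 and 0 were called with a pseudocount of 0.1, with the replicate number as a block and without any 1 of the 4 libraries (0 to 0 in each direction). The replicates share only a number. Across 11272 genes with a mean of at least 1 FPKM, the deviations of PTP2 replicate 1 and SCR replicate 1 from their group means correlated at 0.0635. With the replicate block the 13 differential members had an adjusted p of 0.00396 to 0.00511 by limma. In that fit 0 of 16595 genes were called and 10108 had an unadjusted p under 0.05. These fits without a library or with the block have fewer degrees of freedom, and a lone library is assumed to vary like the other group. For the pseudocount the cause was not tested. With a pseudocount of 0.1 and trend and robust options, added after seeing the data, 3 members were higher and 14 lower at the strict thresholds. The 13 kept their direction under all 11 alternatives, and a fold of at least 2 except for 1 under quantile normalization. In the fits to all 4 libraries they kept an adjusted p of at most 0.05 by limma. Their groups do not overlap, so that leaving out 1 library could not reverse a direction. The block, the minimum of 1 FPKM, and the trend and robust options on log2(FPKM + 1) leave fold changes as they were, so that direction could not change there either. At an adjusted p of 0.05 the 7 higher members became 4 with median-ratio scaling and 4 to 7 without 1 library, and the 32 lower members 20 to 24. Without PTP2 replicate 1 they were 4 and 20, and without PTP2 replicate 2 5 and 20. Of the companion genes, 0 were higher and 2 lower at the strict thresholds. 1 was higher with trend and robust options, with a minimum of 1 FPKM, and with a pseudocount of 0.1 and both options. The lower count was 0 with a pseudocount of 0.1, 0 with the replicate block, 0 to 0 without 1 library, 1 with quantile normalization and 5 with a pseudocount of 0.1 and both options. EFNB2 ranged from -0.066 to 0.0077 on the log2 scale when 1 library was left out, turning positive without SCR replicate 2. Of the 21 members named by rule, 17 kept their direction and their side of 0.05 throughout, and NRP1, PLXNA3, ROBO1 and EFNB2 did not. With quantile normalization PLXNA2, PLXNC1, ROBO3 and EPHA4 also lost their call at 0.05. At this depth, members near 0.01 FPKM rest on 0 to 2 reads, so that changes among them were not detectable.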
